A study of Mus musculus with 7 samples.

Results

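The genes described here were 27 genes of mitosis and 26 genes of DNA replication, 53 of the 16734 genes in the expression table, taken from lists of genes by known function and matched by gene symbol. All 53 were found in the table and all passed the filter on low values, which required 1 RPKM or more on average. Expression was measured by sequencing polyadenylated RNA from suspensions of whole thymus of mice aged 4 weeks. The libraries fall into 3 genotypes: wild type, with a strain label of C57BL/6 (3 libraries, replicates 1, 2A and 2B), and mice homozygous for a mutation of zinc finger 1 (ZnF1-/-, 2 libraries) or of zinc finger 4 (ZnF4-/-, 2 libraries) of Ikaros, a DNA-binding regulator of lymphocyte development encoded by Ikzf1. The labels give the mutants no background strain and do not say how the alleles were made, whether animals were pooled or whether replicates came from separate animals, so every p rests on how far these libraries scatter, which may be technical. Values are RPKM, reads over the exons of a gene divided by the length of those exons and by the size of the library, and differences are of log2(RPKM + 0.5), which understates changes of weakly expressed genes.

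In the mouse thymus, proliferation is concentrated in immature cells: double-negative precursors divide after rearranging the T cell receptor beta chain, whereas most double-positive thymocytes, the bulk of the organ, are small resting cells. Before S phase, Cdc6 and Cdt1 load the Mcm2 to Mcm7 helicase onto origins, cyclin E bound to Cdk2 helps to start replication, the GINS complex completes the active helicase, and the sliding clamp Pcna, loaded by replication factor C, holds DNA polymerases on the template. In mitosis, cyclin B and Cdk1 drive entry, the Aurora and Polo-like kinases build the spindle with motors of the kinesin family, the Bub1, Bub1b, Mad2l1 and Ttk checkpoint proteins watch the kinetochores, and Cdc20 with the anaphase-promoting complex releases separase (Espl1). Replication genes are classically transcribed through E2F sites in G1 and S, and mitotic genes through CHR elements and CCAAT boxes bound by the MuvB complexes and NF-Y in G2.

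The same split was visible in the promoter sequences of the genes themselves. RefSeq promoters on GRCm38.p6, running from 250 bases before to 50 bases after the start of transcription, were matched for 44 of the 53 genes. Both strands were searched for E2F cores (TTCCCGC or TTCGCGC or TTGCCGC or TTGGCGC), for CHR elements (TTTGAA or TTCGAA) and for CCAAT boxes (CCAAT). On the minus strand a CCAAT box can overlap the core TTGGCGC, which happens in none of the sequences printed here. A CHR element was found in 18 of 24 promoters of mitosis genes (75%) and 4 of 25 promoters of replication genes (16%), against 19.2% of all 32851 promoters. An E2F core was found in 17 of 25 promoters of replication genes (68.0%) and 3 of 24 of mitosis genes (12.5%), against 9.57% of all promoters. CCAAT boxes were found in 83.3% of the mitosis and 56.0% of the replication promoters, against 37.4% of all. These matches describe the letters in the window and are not measured binding sites. Below are the promoters of 4 genes that recur in the results: Cdk1, the mitosis gene with the lowest ZnF4-/- values relative to wild type; Top2a, the most abundant mitosis gene; Pcna, which passed the test in a fit with replicate number; and Rrm2, the most abundant replication gene. Capitals mark the motif matches, and each is written 5′ to 3′ on the strand of its gene, which is minus for the first 3 and plus for Rrm2; on GRCm38.p6 they lie at chr10:69352863-69353162, chr11:99024140-99024439, chr2:132253131-132253430 and chr12:24708004-24708303.
Cdk1: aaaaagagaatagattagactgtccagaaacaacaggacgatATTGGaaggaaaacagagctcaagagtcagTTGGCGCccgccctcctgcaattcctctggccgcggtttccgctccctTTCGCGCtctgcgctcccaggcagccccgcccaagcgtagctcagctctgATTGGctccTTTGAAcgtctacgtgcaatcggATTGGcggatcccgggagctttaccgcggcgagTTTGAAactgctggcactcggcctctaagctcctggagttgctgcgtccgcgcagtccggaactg
Top2a: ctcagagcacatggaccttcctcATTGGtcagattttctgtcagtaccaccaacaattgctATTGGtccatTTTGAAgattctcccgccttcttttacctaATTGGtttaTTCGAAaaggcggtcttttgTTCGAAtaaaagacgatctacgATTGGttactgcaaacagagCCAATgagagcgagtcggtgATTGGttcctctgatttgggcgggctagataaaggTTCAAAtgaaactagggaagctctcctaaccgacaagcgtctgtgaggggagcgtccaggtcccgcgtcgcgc
Pcna: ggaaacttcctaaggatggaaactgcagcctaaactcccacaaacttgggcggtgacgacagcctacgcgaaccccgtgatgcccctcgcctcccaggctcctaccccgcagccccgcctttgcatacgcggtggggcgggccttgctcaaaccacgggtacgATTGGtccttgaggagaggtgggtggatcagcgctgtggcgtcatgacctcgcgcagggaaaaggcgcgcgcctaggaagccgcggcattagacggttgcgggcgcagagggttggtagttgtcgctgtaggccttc
Rrm2: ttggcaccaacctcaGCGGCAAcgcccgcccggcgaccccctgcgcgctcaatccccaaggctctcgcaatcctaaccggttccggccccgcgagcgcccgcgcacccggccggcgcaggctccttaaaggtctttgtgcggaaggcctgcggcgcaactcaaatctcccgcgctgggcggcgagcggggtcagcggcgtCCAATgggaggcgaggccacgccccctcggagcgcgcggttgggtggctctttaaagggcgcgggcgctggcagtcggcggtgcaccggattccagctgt
The Cdk1 promoter held 2 E2F cores, 2 CHR elements and 3 CCAAT boxes, and that of Top2a held 4 CHR elements and 6 CCAAT boxes with no E2F core. The Rrm2 window held 1 E2F core and 1 CCAAT box, and the Pcna window only a CCAAT box among these motifs.

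The 53 genes were well expressed in wild type thymus, as shown in the plot of levels by library. Mean wild type RPKM of the mitosis genes ran from 3.69 for Ccnb1 (cyclin B1) to 127 for Top2a (topoisomerase II alpha, which disentangles chromosomes), with a median of 27.4. Replication genes ran from 6.64 for Cdc6 to 87.5 for Rrm2 (the inducible subunit of ribonucleotide reductase, which makes deoxynucleotides), with a median of 21.4. Of the 27 mitosis genes 22, and of the 26 replication genes 20, ranked in the top 25% of all genes in the table. RPKM is scaled by length, so levels may be compared roughly between genes, except where reads of a gene could also come from elsewhere in the genome. Top2a stood at 131.18, 127.85 and 123.24 RPKM in wild type replicates 1, 2A and 2B, and Mki67, which encodes the proliferation antigen Ki-67, at 149.61, 103.79 and 106.36. These ranges overlap, so the order of the leading pair is not settled by 3 libraries. Mcm6 at 67.03 to 72.91 RPKM and Mcm2 at 51.69 to 80.49 RPKM followed Rrm2 (72.64 to 97.76) among the replication genes. The weakest after Ccnb1 and Cdc6 were Tyms (thymidylate synthase, 7.09 to 9.09 RPKM) and Ttk (the checkpoint kinase Mps1, 7.74 to 8.74 RPKM). Of the 50-base stretches of Ccnb1, Tyms and Cdc6, 59.3%, 18.1% and 13.5% also occur elsewhere in the genome. How such reads were counted is not known, and its part in these low levels was not tested. The Tyms value also rests on a model of 3815 bases with a RefSeq identifier of the non-coding type.

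**Figure D1:**
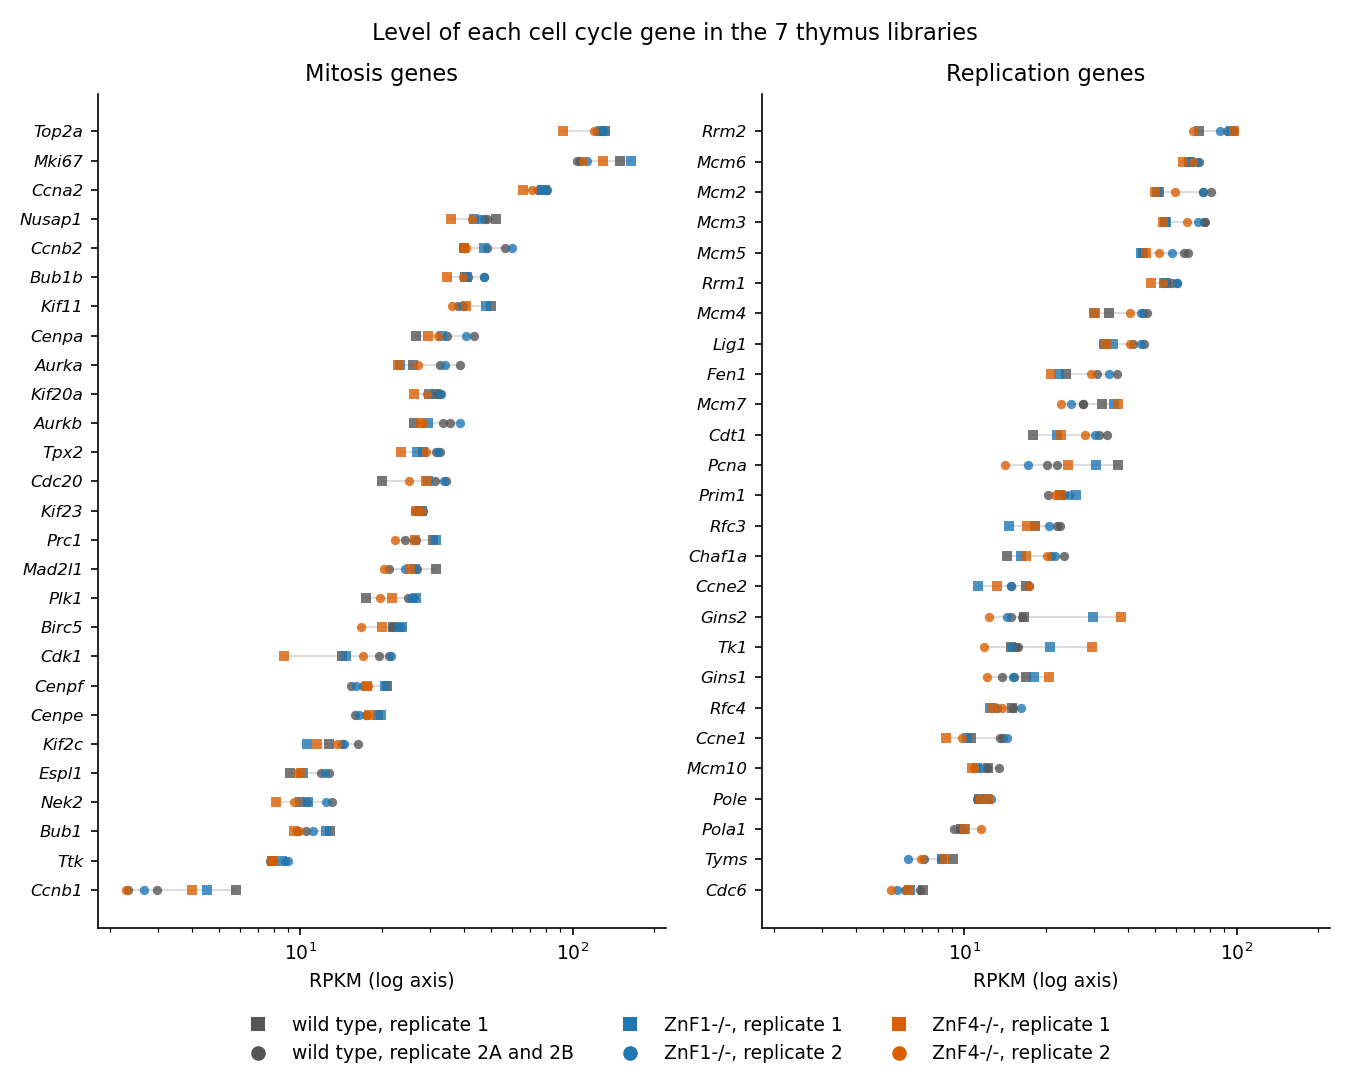
RPKM on a log axis for 27 mitosis genes (left) and 26 replication genes (right), ordered by wild type mean; each point is 1 library, grey for wild type, blue for ZnF1-/- and orange for ZnF4-/-, squares for replicate 1 and circles for the replicates numbered 2. Levels run from about the 3.69 RPKM of Ccnb1 to the 127 RPKM of Top2a in wild type; Gins2, Pcna, Ccnb1, Tk1 and Cdk1 are spread widely among the 7 libraries.

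Replicate number also marked the sequencing run and went with markers of sex. Replicate 1 of each genotype was read as 76 bases on an earlier instrument and the replicates numbered 2 as 50 bases on a later one; Xist was at 90.6 to 109 RPKM in the former and at most 0.03 RPKM in the latter, while Ddx3y was at most 0.01 against 13.2 to 17.4 RPKM. Comparisons are therefore given within each number as well as pooled. The number of reads per library was not given in the sources used here. Thymocyte markers (9 genes, Cd3e, Cd4, Cd8a and Rag1 among them) summed to 3722 to 4722 RPKM in wild type, 4203 to 4744 in ZnF1-/- and 3318 to 3900 in ZnF4-/-, which matches the labelled tissue, and the 7 markers of thymic epithelium and stroma summed to 2.04 to 4.69 RPKM over all libraries, with Pdgfra at 0 in each. Ikzf1 itself was at 142 to 175 RPKM in wild type, 183 to 194 in ZnF1-/- and 238 to 257 in ZnF4-/-; a value over the whole gene does not check the loss of a single finger. Fos and Jun, genes induced within minutes of tissue handling, were at 15.8 and 16.1 RPKM in ZnF1-/- replicate 1 and at 1.05 to 4.03 RPKM elsewhere; the 7 immediate-early genes together summed to 129 RPKM in that library and to 55.7 to 109 RPKM in the others.

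Loss of zinc finger 4 was compared with wild type first. Mitosis genes sat slightly lower in ZnF4-/- thymus: 24 of 27 had a mean difference below 0, and the median log2 difference was -0.17 (range -0.55 to 0.02), against a median of -0.05 over all 10498 tested genes, 59.0% of which were below 0. The shift was seen in both replicate numbers. In number 1, 20 of 27 mitosis genes were lower in ZnF4-/- than in wild type replicate 1, against 42.8% of all tested genes, with a median log2 difference of -0.21. In number 2, 21 of 27 were lower than in both wild type libraries, against 49.5% of all tested genes, with a median of -0.16. Of the 27, 15 were lower within both numbers, and 24.3% of all tested genes were. None was higher within both. The differences were small for each gene: limma without the block called 0 of 27 mitosis genes and 0 of 26 replication genes at an adjusted p under 0.05, against 2.54% of all tested genes, and 0 of the 53 had an unadjusted p under 0.05, against 10.1% of all tested genes. With replicate number as a block, which removes the difference between the runs, 0 mitosis genes and 1 replication gene were called, against 8.22% of all tested genes. In that fit 5 mitosis and 2 replication genes had an unadjusted p under 0.05, and all 7 were lower in ZnF4-/-; 20.5% of all tested genes reached that p, in either direction.

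Among the mitosis genes with low ZnF4-/- values were kinases of mitotic entry, a spindle protein and a subunit of the passenger complex. Cdk1, the kinase that drives mitotic entry, was at 14.25, 21.23 and 19.36 RPKM in wild type replicates 1, 2A and 2B and at 8.67 and 17.03 RPKM in ZnF4-/- replicates 1 and 2. It was lower in ZnF4-/- within each number, although the groups overlap when the numbers are pooled, because Cdk1 also differed between the runs. Its log2 difference was -0.55 ± 0.318 (SE; limma adjusted p = 0.753) and, with the block, -0.44 ± 0.125 (95% interval -0.73 to -0.15; limma adjusted p = 0.0767), which did not pass. Aurka (Aurora A, a kinase of spindle assembly), outside the rule for named genes and given after its values were seen, was at 25.94, 32.58 and 38.47 RPKM in wild type and 22.81 and 27.03 RPKM in ZnF4-/-. Aurka was lower in ZnF4-/- within each number, while the pooled groups overlap, and its log2 difference was -0.36 ± 0.233 and, with the block, -0.29 ± 0.113 (limma adjusted p = 0.802 and 0.198). Nusap1, a microtubule-bundling protein of the spindle, was at 52.54, 47.14 and 48.57 RPKM in wild type and 35.84 and 42.56 RPKM in ZnF4-/-, so that the groups did not overlap. The log2 difference of Nusap1 was -0.33 ± 0.108 with the block (limma adjusted p = 0.125). Birc5 (survivin, a subunit of the chromosomal passenger complex) was at 21.97, 23.45 and 21.72 RPKM in wild type and 19.88 and 16.7 RPKM in ZnF4-/-. Nek2, a kinase that separates centrosomes, was at 9.96, 13.07 and 10.6 RPKM in wild type and 8.16 and 9.43 RPKM in ZnF4-/-. Both genes were lower in each ZnF4-/- library than in every wild type library, with blocked log2 differences of -0.30 ± 0.103 for Birc5 and -0.29 ± 0.115 for Nek2 and limma adjusted p of 0.140 and 0.199. Top2a was at 92.12 and 119.89 RPKM in ZnF4-/-, below all 3 wild type libraries, but nearly all of its difference came from replicate 1, with -0.51 in number 1 against -0.07 in number 2 on the log2 scale. Kif20a, a kinesin of cytokinesis, was at 26.24 and 29.19 RPKM against 31.48 to 32.98 in wild type; 32.3% of its exon bases overlap exons of Cdc23 on the other strand, and the strand of the libraries is not given in the sources used here, so reads of the pair cannot be told apart.

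Several of the other mitosis genes named by the rule were near wild type or differed between the numbers. Mki67 was at 129.39 and 108.91 RPKM in ZnF4-/-, inside the wild type range, and its blocked log2 difference of -0.07 ± 0.104 had an interval of -0.31 to 0.17. Plk1, the Polo-like kinase, was higher in ZnF4-/- than in wild type within number 1 (21.77 against 17.39 RPKM) and lower within number 2 (19.63 against 24.82 and 26.16 RPKM). Ccnb2 (cyclin B2) was level in number 1, at 39.91 against 39.76 RPKM, and lower in number 2, at 40.59 against 56.48 and 48.51 RPKM. Ttk stood at 7.83 RPKM in both genotypes in number 1 and at 7.9 against 8.74 and 7.74 RPKM in number 2. Kif2c, a kinesin that depolymerizes microtubules, was lower within both numbers, with a blocked log2 difference of -0.13 ± 0.107. The 15 mitosis genes not named by the rule for genes had unblocked log2 differences between -0.36 (Aurka) and 0.02 (Cenpe).

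**Figure D2:**
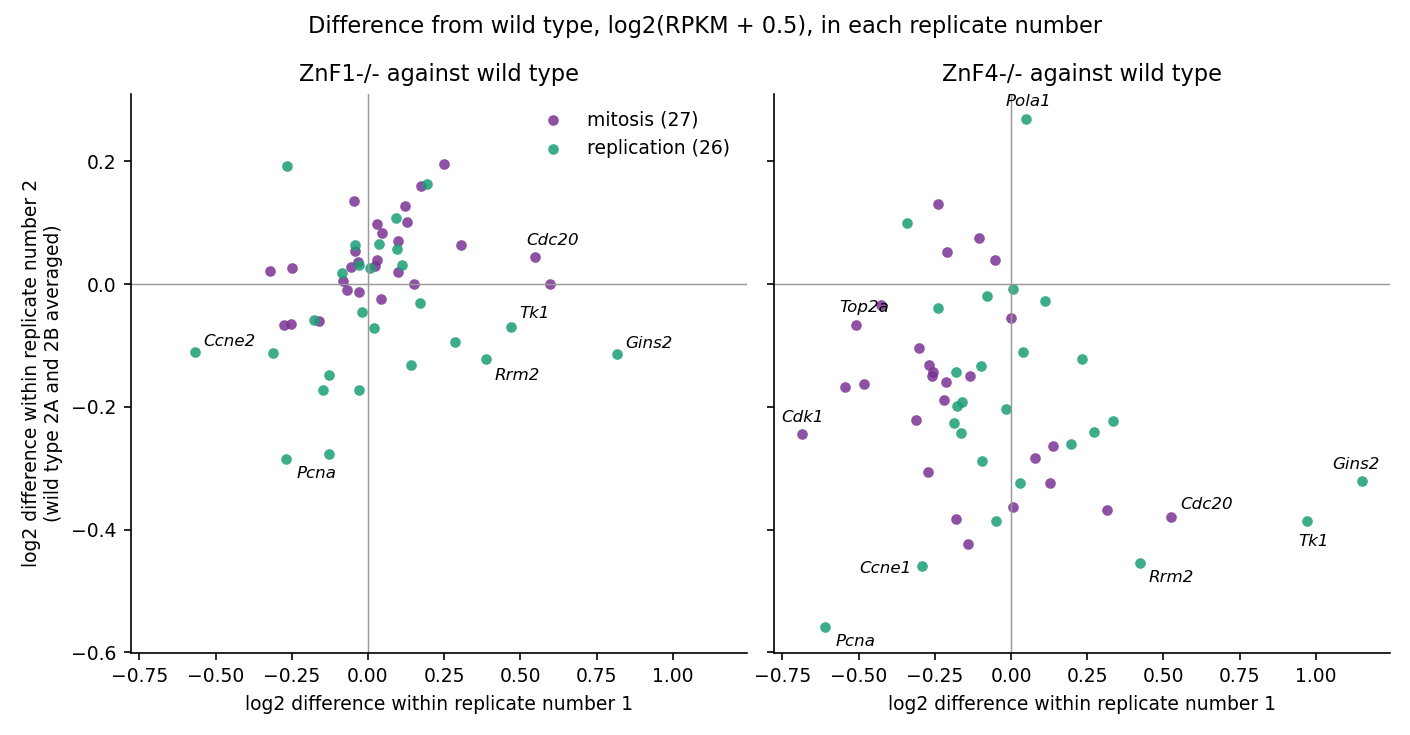
Log2 difference from wild type within replicate number 1 (x axis) and number 2 (y axis) for ZnF1-/- (left) and ZnF4-/- (right), in log2(RPKM + 0.5); each point is 1 gene, purple for mitosis and green for replication. For ZnF4-/-, 15 of 27 mitosis and 11 of 26 replication genes were lower than every wild type library of the same number, while Gins2, Tk1, Rrm2 and Cdc20 lie on opposite sides of 0 in the 2 numbers; for ZnF1-/- most points lie near 0.

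Replication genes were less uniform in ZnF4-/-. Of 26, 19 were below wild type, against 59.0% of all tested genes. The median log2 difference was -0.11 (range -0.45 to 0.43), against -0.05 over all tested genes. In number 1, 14 of 26 were lower, against 42.8% of all tested genes, and 12 were higher. In number 2, 20 were lower than both wild type libraries, against 49.5% of all tested genes, and 1 was higher. Their medians were -0.03 in number 1 and -0.21 in number 2. Those of all tested genes also differed between the numbers, at 0.05 and -0.07. Of the 26, 11 were lower within both numbers, against the 24.3% of all tested genes. Pcna, the sliding clamp, was at 36.77, 20.05 and 21.87 RPKM in wild type replicates 1, 2A and 2B and at 23.91 and 14.05 RPKM in ZnF4-/- replicates 1 and 2. Within each number the ZnF4-/- library was the lowest, by 0.61 log2 units in number 1 and 0.56 in number 2, but the run difference of Pcna was larger, so the pooled groups overlap. Without the block its log2 difference was -0.45 ± 0.367 (limma adjusted p = 0.891); with the block Pcna fell by 0.58 on the log2 scale (SE 0.092, 95% interval -0.79 to -0.37, limma adjusted p = 0.00689), the only call among the 53 genes in that fit. Pcna stayed past the threshold with the block when each library was left out in turn (limma adjusted p = 0.0131 to 0.0462). ZnF1-/- libraries lay between, at 30.41 and 17.10 RPKM, with a blocked log2 difference from wild type of -0.28 ± 0.092 (limma adjusted p = 0.337). Of the 50-base stretches of the Pcna transcript, 60% are also found elsewhere in the genome, at the pseudogene Pcna-ps2 (chr19:9357768-9358984 on mm9), so its RPKM depends on how the authors counted such reads.

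Ccne1 (cyclin E1), which has no shared stretch, had the next largest ZnF4-/- difference among replication genes with the block. It was at 10.54, 13.84 and 13.5 RPKM in wild type, 10.22 and 14.3 RPKM in ZnF1-/-, and 8.52 and 9.8 RPKM in ZnF4-/-. Each ZnF4-/- library was below all other libraries. The blocked log2 difference of Ccne1 was -0.38 ± 0.103 against wild type (limma adjusted p = 0.0686) and -0.39 ± 0.112 against ZnF1-/- (limma adjusted p = 0.0925), neither of which passed. Ccne2 (cyclin E2), the other E-type cyclin, was at 13.22 and 17.19 RPKM in ZnF4-/- against 14.85 to 17.26 RPKM in wild type. Among helicase genes, Mcm2 was at 51.69, 80.49 and 74.95 RPKM in wild type and 49.97 and 59.29 RPKM in ZnF4-/-, a blocked log2 difference of -0.24 ± 0.109, and Mcm6 differed by -0.05 ± 0.090. Mcm10, an origin-firing factor, was lower in each ZnF4-/- library (10.66 and 10.8 RPKM) than in any wild type library (12.12 to 13.36 RPKM), with a blocked difference of -0.21 ± 0.098. Rfc3, a subunit of the clamp loader, was at 17.01 and 18.01 RPKM in ZnF4-/- against 18.22 to 22.39 in wild type. Cdc6 and Tyms were lower within both numbers by at most 0.24 log2 units. Pola1, the catalytic subunit of polymerase alpha, was the replication gene higher within both numbers, at 10.08 and 11.46 RPKM against 9.13 to 9.73 RPKM, and Prim1, the primase subunit, was level at 22.5 and 21.51 against 20.2 to 23.19 RPKM. Intervals for the blocked difference were -0.07 to 0.41 for Pola1 and -0.23 to 0.22 for Prim1.

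**Figure D3:**
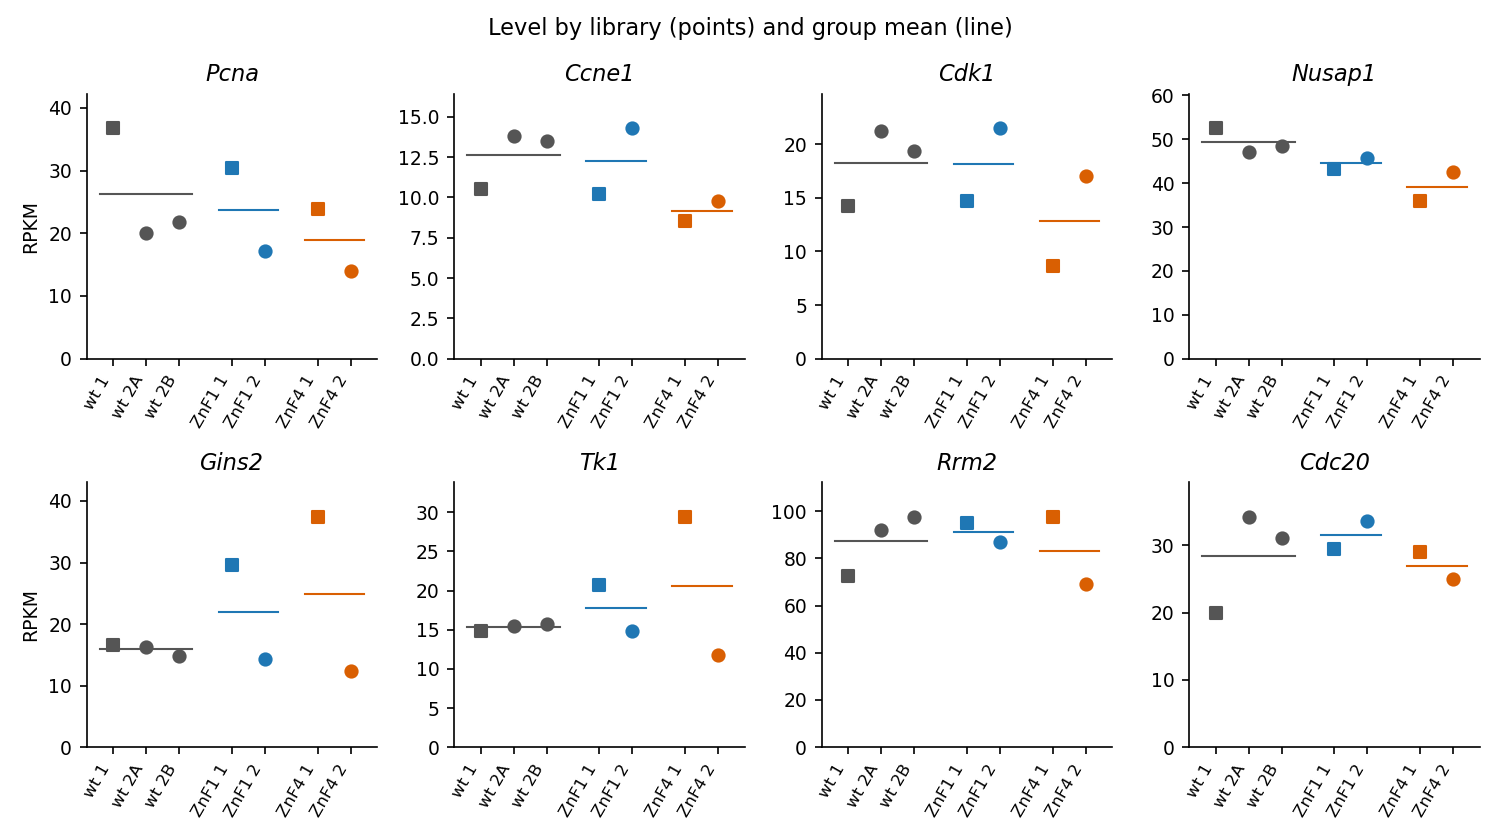
RPKM in each of the 7 libraries for 8 genes, with a line at each group mean; squares are replicate 1 and circles the replicates numbered 2. In the upper row the ZnF4-/- library is lowest within each number for Pcna, Ccne1, Cdk1 and Nusap1; in the lower row Gins2, Tk1, Rrm2 and Cdc20 are above wild type in ZnF4-/- replicate 1 and below it in replicate 2.

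A group of genes moved in opposite directions in the 2 ZnF4-/- libraries. Gins2, a subunit of the replicative helicase, was at 16.60 RPKM in wild type replicate 1 and 37.46 RPKM in ZnF4-/- replicate 1, but at 16.26 and 14.86 RPKM in wild type 2A and 2B and 12.34 RPKM in ZnF4-/- replicate 2. Tk1, the S-phase thymidine kinase, went from 14.79 to 29.44 RPKM in number 1 and from 15.47 and 15.77 to 11.83 RPKM in number 2. Rrm2 went from 72.64 to 97.51 RPKM in number 1 and from 92.17 and 97.76 to 69.12 RPKM in number 2. Cdc20, outside the rule for named genes and given after its values were seen, went from 19.95 to 28.95 RPKM and from 34.26 and 31.11 to 24.97 RPKM. A limma test of whether the ZnF4-/- difference itself differed between numbers called these 3 replication genes and 1 mitosis gene, against 4.45% of all tested genes. This test takes its spread from wild type 2A and 2B alone, so its p values hold no spread between mutant libraries. The same test in ZnF1-/- called Gins2 alone, against 1.32% of all tested genes, with ZnF1-/- at 29.65 and 14.33 RPKM. Within number 1, then, both mutants had more Gins2 than wild type, and within number 2 both had less.

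Gene length moved with the ZnF4-/- differences over all tested genes. Over all tested genes with models of 1000 bases or less, the median log2 difference of ZnF4-/- from wild type was 0.16 in number 1 and -0.25 in number 2; for models over 5000 bases it was 0.01 and 0.06. The Gins2 model has 1043 bases, the shortest of the 53, that of Tk1 has 1376, and those of Cdc20 and Rrm2 have 1794 and 2190. Other short models went both ways in ZnF4-/- against wild type in number 1. Gins1 (1094 bases) and Cenpa (1342) were higher, and Rfc3 (1224), Rfc4 (1227) and Pcna (1266) were lower. Exons of Gse1 on the other strand cover 70.7% of the 3900 exon bases that the GENCODE annotation gives Gins2. The deposited Gins2 model is shorter, so how much of it they cover is not known. Reads of any overlap cannot be told apart without strand. Gse1 was at 50.27 RPKM in wild type and 58.18 RPKM in ZnF4-/- in number 1. In number 2, Gse1 was at 89.09 and 85.64 RPKM in wild type and 58.95 RPKM in ZnF4-/-. After each library's trend over gene length was removed, a step added after the data were seen, the test of the difference between numbers still called Gins2 (-1.12, limma adjusted p = 0.00354), Tk1 (-1.07, limma adjusted p = 0.00842) and Cdc20 (-0.68, limma adjusted p = 0.0468) in ZnF4-/-, and no longer Rrm2 (-0.69, limma adjusted p = 0.0822). The fit with the block on these values called Pcna (-0.54 ± 0.120, limma adjusted p = 0.0252) and Ccne1 (-0.35 ± 0.0896, limma adjusted p = 0.0453) in ZnF4-/- against wild type. In that fit 1030 of the 10498 tested genes were called. The mitosis median was -0.19 there, with 23 of 27 genes below 0 in number 1 and 24 of 27 in number 2. Replication genes had a median of -0.07, with 18 and 21 of 26 below 0. Shares of all tested genes are not available for these counts below 0 or for the repeated test of the difference between numbers.

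**Figure D4:**
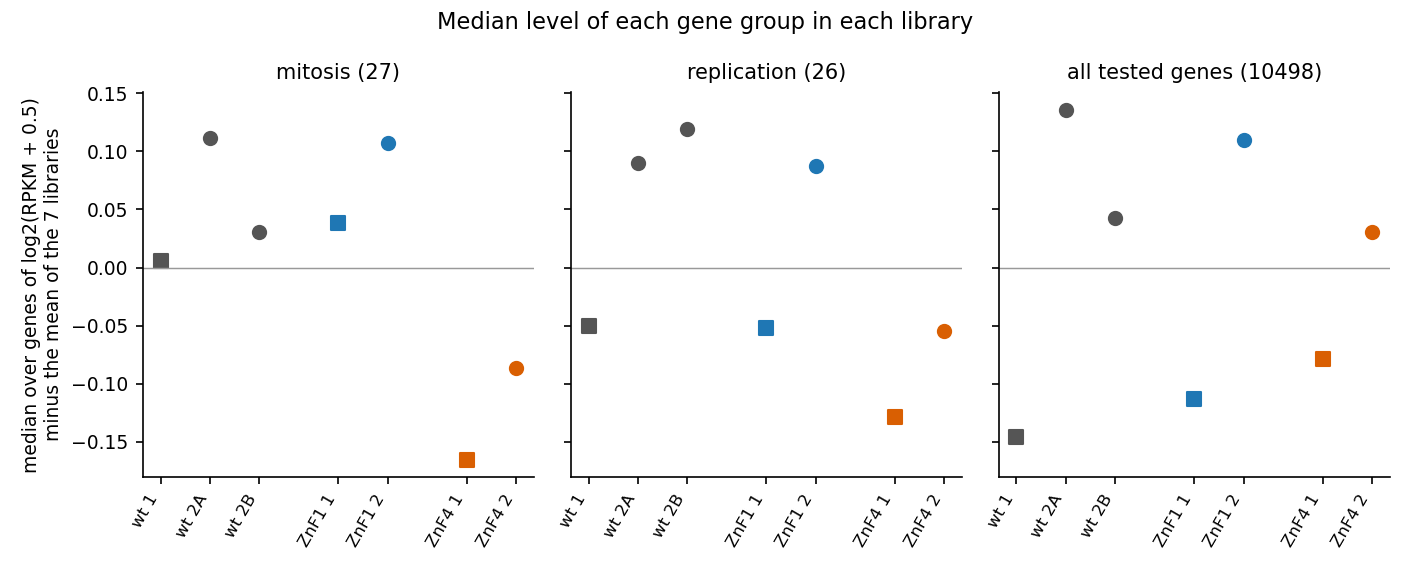
Median over genes of log2(RPKM + 0.5) minus each gene's mean over the 7 libraries, for 27 mitosis genes, 26 replication genes and 10498 tested genes; each point is 1 library. The ZnF4-/- libraries have the lowest mitosis medians, -0.17 and -0.09, while the medians of all tested genes separate the replicate numbers instead, from -0.15 to -0.08 in replicate 1 and 0.03 to 0.14 in the others.

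Summed markers of some other cell types differed in the same ZnF4-/- libraries. Erythroid markers (6 genes) summed to 92.6 and 107 RPKM in ZnF4-/- against 19.6 to 55.5 RPKM in wild type, and myeloid and dendritic markers (6 genes) to 76.6 and 88.4 RPKM against 38.5 to 56.6 RPKM. Both sums rest mainly on few genes: Hbb-b1 and Hbb-b2, copies of beta globin, were each at 43.38 RPKM or more in ZnF4-/- and at most 23.71 RPKM in wild type, and Lyz2 (lysozyme) was at 56.79 and 73.87 RPKM against 26.52 to 39.86 RPKM. Other markers of these lists did not all follow. Alas2 and Itgax were higher in ZnF4-/- within both numbers, while Epor was at 0 and 0.05 RPKM against 0.11 to 0.13 in wild type. Cd68 was at 8.62 against 10.01 RPKM in number 1 and at 7.1 against 7.09 and 6.98 RPKM in number 2. Mpo was at 5.94 against 1.57 RPKM in number 1 and at 0.5 against 1.3 and 1.69 RPKM in number 2. The thymocyte sum was lower in ZnF4-/- than in wild type of the same number, at 3318 against 3722 RPKM in number 1 and at 3900 against 4664 and 4722 RPKM in number 2. Its members did not all move this way. Cd4, Cd8a, Cd8b1, Lck, Rag1 and Rag2 were lower within both numbers. Dntt was higher within both, at 531.62 against 483.73 RPKM in number 1 and 615.17 against 602.66 and 571.82 RPKM in number 2. Cd3e and Ptcra were higher in number 1 and not outside the wild type pair in number 2. In whole tissue, fewer dividing cells and less of a transcript per cell cannot be told apart, and the part of these cell types in the shift of the mitosis genes was not tested. Markers of double-negative and other early thymocytes (6 genes) summed to 29.1 and 23.0 RPKM in ZnF4-/- replicates 1 and 2 and to 30.3 and 36.2 RPKM in ZnF1-/-, against 24.7 to 28.3 RPKM in wild type. Its members went both ways in ZnF4-/-: Kit was at 4.12 and 4.69 RPKM against 2.02 to 2.31 and Hes1 at 3.49 and 2.37 against 1.57 to 1.97, while Il2ra was at 13.67 and 9.72 RPKM against 15.1 to 17.21.

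In ZnF1-/- thymus these genes lay near wild type. Mitosis genes had a median log2 difference of 0.04, with 20 of 27 above 0. Replication genes had a median of -0.04, with 16 of 26 below 0. All tested genes had a median of -0.02, with 55.1% below 0. In number 1, 12 of 27 mitosis and 13 of 26 replication genes were lower than in wild type, against 45.9% of all tested genes. In number 2, 1 of 27 mitosis and 14 of 26 replication genes were lower than both wild type libraries, against 30.2% of all tested genes. Lower within both numbers were 1 mitosis and 8 replication genes, against 17.5% of all tested genes, and higher within both were 6 mitosis and 3 replication genes, against 20.3%. Limma called 0 of the 53 genes without the block, against 0.0857% of all tested genes, with 0 at an unadjusted p under 0.05, against 3.85%. With the block it also called 0, against 0.876% of all tested genes, with 1 replication gene (Pcna) at an unadjusted p under 0.05, against 8.73%. Cyclin E2 was the replication gene furthest down: Ccne2 was at 11.25 and 14.79 RPKM in ZnF1-/- against 16.9, 14.85 and 17.26 RPKM in wild type, a log2 difference of -0.33 ± 0.184 (limma adjusted p = 1.000). Rfc3, at 14.57 and 20.41 RPKM, was lower within both numbers (blocked difference -0.21 ± 0.109). Plk1 and Mki67 leaned the other way, with blocked differences of 0.23 ± 0.160 and 0.13 ± 0.104. Mki67 was at 163.58 RPKM in ZnF1-/- replicate 1 against 149.61 in wild type 1, and at 112.73 RPKM in replicate 2 against 103.79 and 106.36 in wild type 2A and 2B. These leanings are within the spread between libraries.

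The comparison of the mutants with each other asks whether the fingers differ. Mitosis genes were lower in ZnF4-/- than in ZnF1-/- in 26 of 27 cases, with a median log2 difference of -0.19. Replication genes were lower in 20 of 26, with a median of -0.06. All tested genes had a median of -0.03, with 55.8% below 0. In number 1, 26 of 27 mitosis and 11 of 26 replication genes were lower, against 47.2% of all tested genes. In number 2, 24 of 27 and 23 of 26 were lower, against 63.3%. Lower within both numbers were 23 mitosis and 11 replication genes, against 37.3% of all tested genes. As against wild type, limma called 0 of the 53 genes without the block, against 2.34% of all tested genes and 0 with it, against 7.29%. At an unadjusted p under 0.05 there were 0 without the block, against 9.17% of all tested genes, and with it 6 mitosis and 2 replication genes, each lower in ZnF4-/-, against 20.2% in either direction. Cdk1 came closest, with ZnF1-/- at 14.74 and 21.5 RPKM, a blocked difference of -0.53 ± 0.135 and a limma adjusted p of 0.0583. Both comparisons of ZnF4-/- use the same ZnF4-/- libraries, so the one does not add independent weight to the other.

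Wider lists of cell cycle genes, chosen by function with earlier results of these data known, leaned the same way in ZnF4-/- against wild type. They were measured in the same libraries, so they add no independent weight. Medians of the log2 difference were -0.15 for 34 kinetochore and chromosome structure genes, of which 29 were below 0, -0.14 for 44 mitotic kinases, motors and regulators, of which 42 were below 0, and -0.16 for 38 origin licensing and fork genes, of which 33 were below 0. Medians were -0.09 for 20 S phase checkpoint and repair genes, of which 17 were below 0, and -0.10 for 23 genes of the E2F, RB, MuvB, MYB and FOXM1 regulators, of which 16 were below 0. All tested genes had a median of -0.05, with 59.0% below 0. The share of the regulators, 69.6%, was the nearest to that. Limma without the block called 0 of these genes in any comparison. For ZnF4-/- relative to wild type, where 2.54% of all tested genes were called, 2, 1, 0, 1 and 1 genes of the lists, in the order given, had an unadjusted p under 0.05, all lower, which is 5 of 159 genes against 10.1% of all tested genes. With the block it called 3 of the 159 in ZnF4-/- against wild type, each lower, against 8.22% of all tested genes, so calls were no more frequent among these genes than over the table. Bub3, a checkpoint protein of the kinetochore, was at 42.69, 49.4 and 49.29 RPKM in wild type and 34.34 and 34.39 RPKM in ZnF4-/- (blocked log2 difference -0.42, limma adjusted p = 0.0383). E2f2, an E2F factor, was at 53.69, 78.17 and 76.84 RPKM in wild type and 43.38 and 56.2 RPKM in ZnF4-/- (-0.40, limma adjusted p = 0.0422). Myb, a transcription factor of dividing lymphoid precursors, was at 197.49, 250.21 and 218.29 RPKM in wild type and 147.48 and 145.72 RPKM in ZnF4-/- (-0.56, limma adjusted p = 0.0243). Against ZnF1-/-, E2f2 (-0.52, limma adjusted p = 0.0223), the kinase Melk (-0.47, limma adjusted p = 0.0401) and the Cdk phosphatase Cdc25b (-0.56, limma adjusted p = 0.0381) were lower with the block, 3 of the 159 genes against 7.29% of all tested genes. Melk was at 7.31 and 8.3 RPKM in ZnF4-/-, 10.21 and 11.88 RPKM in ZnF1-/- and 7.07 to 8.73 RPKM in wild type, and Cdc25b was at 23.97 and 25.05, 33.42 and 39.39, and 20.7 to 30.57 RPKM in the same order. In ZnF1-/- against wild type neither passed with the block (limma adjusted p = 0.0840 for Melk and 0.115 for Cdc25b). Each of these calls was lost when some single library was left out of the blocked fit. The highest adjusted p of limma was 0.239 for Bub3 and 0.167 for Myb without ZnF4-/- replicate 2, and 0.159 for E2f2 without wild type replicate 2B. Against ZnF1-/- it was 0.338 for E2f2, 0.303 for Melk and 0.317 for Cdc25b without ZnF1-/- replicate 1.

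The run difference gave more calls among the 53 genes than any comparison of genotypes. Replicate number 1 against number 2, the block coefficient of the fit, was past the threshold for 10 of 27 mitosis and 15 of 26 replication genes, against 41.3% of all tested genes. Higher in number 1 were Ccnb1 (0.81 ± 0.129 log2 units), Gins2 (0.81 ± 0.235), Pcna (0.79 ± 0.0769), Mcm7 (0.45) and Mki67 (0.44). The Gins2 coefficient averages over unlike genotypes, with 0.09 in wild type, 1.02 in ZnF1-/- and 1.56 in ZnF4-/-. It is therefore not a difference between runs that the genotypes share. Lower in number 1 were Cdk1 (-0.64 ± 0.105), the licensing factor Cdt1 (-0.56), the flap nuclease Fen1 (-0.52), Mcm2 (-0.47) and Mcm4 (-0.47), beside a median of -0.20 over all tested genes. Ccnb1 was at 5.79 RPKM in wild type 1 and 2.96 and 2.32 RPKM in wild type 2A and 2B, at 4.54 and 2.67 RPKM in ZnF1-/-, and at 4 and 2.29 RPKM in ZnF4-/-. In each genotype the replicate 1 library was the highest, and the genotypes overlap.

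Shared sequence went with this difference. For 7 of the 53 genes at least 10% of the 50-base stretches of the transcript occur elsewhere in mm9: Pcna (60%), Ccnb1 (59.3%), Mcm7 (26.9%), Tk1 (24.8%), Tyms (18.1%), Cdc6 (13.5%) and Cdc20 (11.5%). Stretches of 76 bases are shared less, at 46.4% for Pcna, 49.4% for Ccnb1 and 14.1% for Mcm7. Of these 7 genes, 6 were higher in number 1, read at 76 bases, and 4 passed the test, with a median log2 difference of 0.45. Among the 6 is Tk1, which did not pass and stood at -0.08 in wild type, 0.46 in ZnF1-/- and 1.28 in ZnF4-/-. Of the 27 genes with no shared stretch found, 22 were lower in number 1, with a median of -0.18. Gins2 is among the 27, but the transcript searched had 473 bases against 1043 in its deposited model. The copies of Ccnb1 lie at the pseudogenes Gm5593 on chromosome 7 and Gm12856 on chromosome 4 and at an unannotated place on chromosome 14. Run, read length, instrument and sex cannot be told apart in these libraries. The low level of Ccnb1 beside Ccnb2 (2.32 to 5.79 against 39.76 to 56.48 RPKM in wild type) is a level per length over a transcript that is mostly shared.

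**Figure D5:**
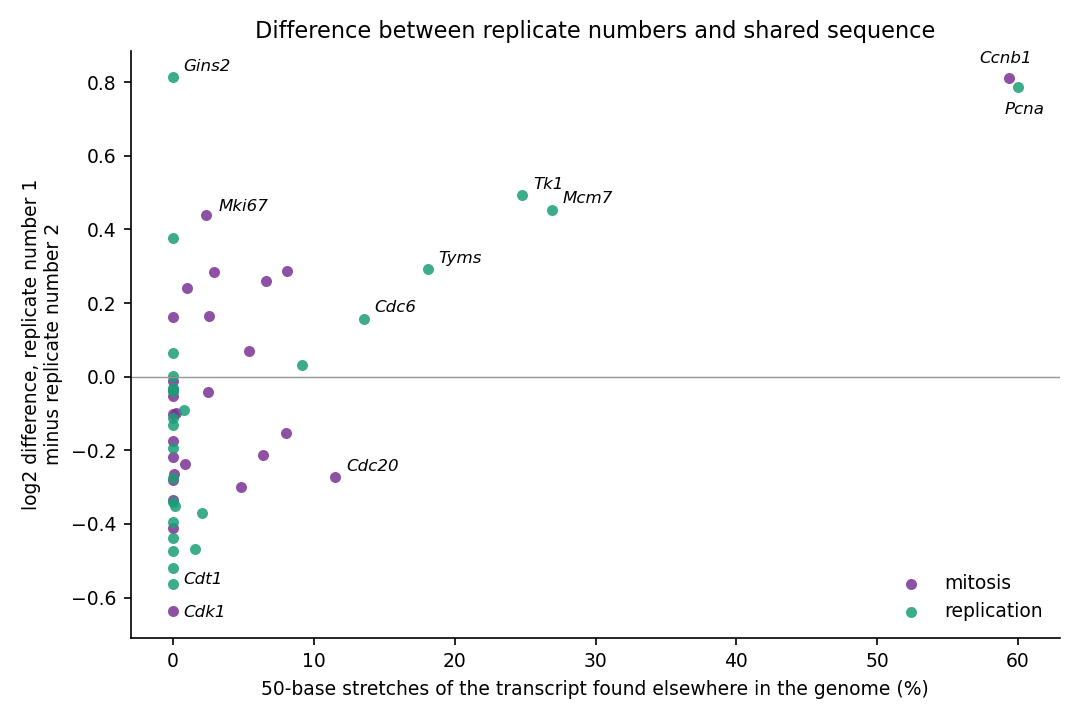
Log2 difference between replicate number 1 and number 2, adjusted for genotype (y axis), against the percentage of 50-base stretches of the transcript that occur elsewhere in the mm9 genome (x axis), 1 point per gene, purple for mitosis and green for replication. Pcna and Ccnb1, near 60% shared, are at 0.79 and 0.81. Genes with no shared stretch found run from -0.64 for Cdk1 to 0.81 for Gins2. Within genotypes the Gins2 difference was 0.09 in wild type, 1.02 in ZnF1-/- and 1.56 in ZnF4-/-. For Gins2 the transcript searched had 473 bases, against 1043 in the deposited model.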

How the data were processed

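Polyadenylated RNA from whole thymus of 7 mouse libraries was measured. The authors deposited RPKM values per RefSeq gene, computed from exonic reads in SeqMonk with the NCBI annotation of mm9 and with duplicate transcripts of a gene removed, per the labels' design text; TopHat and bedtools are named in the submitters' processing notes, with no version. Depth, strand and the handling of reads with several matches are not given in the sources used here, so no counting interval is given.

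Values were transformed as log2(RPKM + 0.5), and the 10498 of 16734 genes averaging 1 RPKM or more were fitted with limma 3.58.1 in R 4.3.3 (lmFit, eBayes with trend), 1 model of 3 groups with 4 residual and 3.26 prior degrees of freedom. P values are two-sided and adjusted by Benjamini and Hochberg over all tested genes, with a threshold of 0.05. Errors are SE of that fit. The replicate number marks a sequencing run, and deviations from group means correlated at 0.489 to 0.737 in all 8 pairs of libraries sharing a number, so a fit with the number as a block (3 residual, 4.96 prior degrees of freedom) stands beside it. A test of genotype by number had 1 residual and 16.8 prior degrees of freedom, both resting on the difference between wild type 2A and 2B. Wild type 2A and 2B differed (0.429% identical values) and were kept apart; they may share an animal. With 2 libraries a mutant, permutation of labels could not pass the threshold and was not run.

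Locations, exon overlaps and shared stretches were computed on mm9 with the GENCODE vM1 annotation, and promoters are from RefSeq on GRCm38.p6. The fits were tested on simulated data. Members and lists were chosen with earlier results of these data known. Genes were named if called in either fit, if among the 6 mitosis or 6 replication genes of smallest unadjusted p in a mutant against wild type, if among the 2 highest or 2 lowest of a list in wild type, or if among 10 landmark genes. Alternatives were other pseudocounts, filters and scalings, averaging 2A with 2B, leaving out each library, leaving out genes with shared sequence, and removing each library's trend over gene length.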

Additional observations from a re-analysis of the deposited data

Results flagged for a closer look

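The difference between a mutant and wild type itself differed between the 2 replicate numbers for 4 of the 53 genes in ZnF4-/- and 1 of them in ZnF1-/-, by the limma test of genotype by replicate number, against 4.45% and 1.32% of all tested genes. For Gins2 the difference in number 2 minus that in number 1 was -0.9317 log2 units in ZnF1-/-, at an adjusted p of 0.0308, and -1.472 in ZnF4-/-, at an adjusted p of 0.000298. For Tk1 it was -1.356 in ZnF4-/- (adjusted p = 0.000673), for Cdc20 -0.9063 (adjusted p = 0.0130) and for Rrm2 -0.8771 (adjusted p = 0.0124). All 4 genes were higher than wild type within number 1 and lower within number 2 in ZnF4-/-. That test has 1 residual degree of freedom, from wild type 2A and 2B, and otherwise borrows its estimate of spread from other genes in the same 2 libraries. Its p values therefore hold no spread between mutant libraries or among libraries of number 1. Gene length moved with the ZnF4-/- differences over all tested genes. Its part in these 4 genes was not tested beyond the fit that removes the length trend. Exons of Gse1 on the other strand overlap 70.7% of the 3900 exon bases annotated for Gins2. The deposited Gins2 model has 1043 bases, and how much of it they overlap is not known.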

How the results depend on the processing

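In ZnF4-/- against wild type, the median log2 difference of the mitosis genes stayed below 0 in every alternative run: it was -0.116 with quantile normalization, ran from -0.256 (without wild type replicate 1) to -0.144 when each library was left out, and was -0.190 with the replicate block and the length trend removed. That of the replication genes ran from -0.197 (without wild type replicate 1) to -0.0800, and in ZnF1-/- from -0.132 (without ZnF1-/- replicate 2) to 0.0496 (without ZnF1-/- replicate 1), where it changed sign. Replication genes called in ZnF4-/- against wild type numbered 0 without the block, 1 with the replicate block (Pcna, blocked log2 difference -0.583), 0 with the block once genes sharing 10% or more of their stretches were left out, which removes Pcna itself, and 2 with the block and the length trend removed (Pcna and Ccne1); the cause of the change was not tested. With the block and without ZnF4-/- replicate 2, which leaves 1 ZnF4-/- library, log2 differences from wild type were -0.61 for Pcna and -0.68 for Cdk1. With all 7 libraries, the block alone changed no other call among the 53 genes. Against ZnF1-/-, Cdk1 passed with the block once wild type replicate 1 was left out (-0.53, limma adjusted p = 0.0402). Of the 25 named genes, at most 8, 5 and 6 changed sign under any 1 alternative in ZnF1-/- against wild type, ZnF4-/- against wild type and ZnF4-/- against ZnF1-/-, with no call on either side.

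Calls over all tested genes moved more. For ZnF1-/- against wild type they went from 9 to 92 with the replicate block, 153 with the block and the length trend removed, 3 without a filter, 4 with a filter at 5 RPKM, 18 with median scaling, 14 with quantile normalization, 1 with 2A and 2B averaged, and 1 to 10 when a library was left out. For ZnF4-/- against wild type they went from 267 to 863, 1030, 596 and 54 under the first 4 of these, 130 with 2A and 2B averaged, and 44 to 253 when a library was left out. For ZnF4-/- against ZnF1-/- they went from 246 to 765, 945, 576 and 51 under the first 4, and 90 to 318 when a library was left out. The low number of libraries, 2 for each mutant, and unknown depth limit the precision.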
